A study of Homo sapiens with 6 samples.

Results

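The spindle assembly checkpoint genes analysed here are *BUB1*, *BUB1B*, *BUB3*, *MAD1L1*, *MAD2L1*, *MAD2L2*, *TTK*, *CDC20* and *TRIP13*. They were chosen by symbol and make up 9 of the 58735 genes in the expression table. Their mRNA was measured by RNA sequencing in TPC-1, a human papillary thyroid carcinoma cell line, in 3 libraries of the wild strain, called TPC-1, and in 3 of *RRM2*-OE-TPC-1. The latter is the same line infected with a lentivirus that carries full-length *RRM2*, a subunit of ribonucleotide reductase, in the LV18 vector under a CMV promoter, followed by puromycin selection. No empty vector is described for the wild strain, so that infection, selection and *RRM2* itself cannot be told apart. The genotype labels of overexpression replicates 2 and 3 name RRM3 and RRM4, but their titles name *RRM2*. The study describes the libraries of each line as biological triplicates. *RRM2* was at 9.17, 9.05 and 8.52 FPKM (fragments counted, scaled to the length of all annotated exons of the gene and to library depth) in the TPC-1 libraries and at 50.4, 47.5 and 47.2 FPKM in those of *RRM2*-OE-TPC-1, called the overexpressing cells from here on.

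The spindle assembly checkpoint holds cells in mitosis until every chromosome is attached to spindle microtubules. At an unattached kinetochore the kinase TTK (also called MPS1) starts the signal, BUB1 and BUB3 are recruited, and a complex of MAD1 (the product of *MAD1L1*) and MAD2 (the product of *MAD2L1*) turns further MAD2 into the form that binds CDC20. MAD2, BUBR1 (the product of *BUB1B*) and BUB3 together with CDC20 form the mitotic checkpoint complex. This complex blocks the anaphase-promoting complex (APC/C), a ubiquitin ligase that CDC20 otherwise activates. The ATPase TRIP13 takes MAD2 out of its CDC20-binding form. MAD2L2, a relative of MAD2, is known mainly for its work in DNA repair, in polymerase zeta and the shieldin complex. Transcripts of many mitotic genes are at their highest in G2 and M phase.

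Of the 9 genes, 8 rose in the overexpressing cells and *MAD2L2* did not pass the test. A gene is said to have risen or fallen at a limma p of 0.05 or less after Benjamini-Hochberg adjustment over all 13621 genes tested, and each of the 9 was among those tested. Of all tested genes, 34.9% rose by this rule and 32.7% fell. The more stringent call also asked for an absolute log2 fold change of at least 1 on the log2(FPKM + 0.1) scale, and 6 of the 9 genes met it, all higher in the overexpressing cells, against 4.48% of tested genes called higher. These were *TRIP13*, *CDC20*, *TTK*, *MAD2L1*, *BUB1B* and *BUB1*. The study itself listed these 6 genes as differentially expressed from the same libraries, so their count is not independent evidence of a direction. For 8 of the 9 genes all overexpressing libraries lay above all libraries of TPC-1, as they did for 37.3% of tested genes. The median log2 fold change of the 9 genes was 1.05, with a range of -0.031 to 1.58, beside a median of 0.011 over all tested genes. In bulk RNA a larger share of cells in G2 and M phase and more of a transcript per cell cannot be told apart. By flow cytometry the study found a larger share of the overexpressing cells in S phase, and its text gives no result for G2 and M phase.

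The promoters of the members, *MAD2L2* included, were searched for short motifs known from mitotic genes. RefSeq promoters on GRCh38.p14, from 250 bases before to 50 bases after the start site, were found for 7 of the 9 genes, with 2 start sites for *MAD2L2*. *BUB3* and *TTK* had no entry. The core of the cell cycle homology region (CHR, TTTGAA) was searched on both strands, as were the CCAAT box (CCAAT) and an E2F-type site (GCGGGAA), and these letters do not overlap one another. The 120 bases before the start site are given for 4 genes, 5′ to 3′ in the direction of the gene, with matches in capitals (a match on the other strand appears as its reverse complement). *CDC20* was chosen because it holds the CHR core and CCAAT boxes side by side, *BUB1* and *BUB1B* because the 2 related genes hold different motifs, and *MAD2L2* because it was the member that did not pass the test.
CDC20, chr1:43358861-43358980, plus strand: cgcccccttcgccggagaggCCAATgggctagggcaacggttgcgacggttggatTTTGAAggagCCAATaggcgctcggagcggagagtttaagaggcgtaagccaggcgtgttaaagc
BUB1, chr2:110678064-110678183, minus strand: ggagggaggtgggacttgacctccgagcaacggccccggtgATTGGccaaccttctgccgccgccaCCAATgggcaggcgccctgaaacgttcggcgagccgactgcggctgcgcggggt
BUB1B, chr15:40160949-40161068, plus strand: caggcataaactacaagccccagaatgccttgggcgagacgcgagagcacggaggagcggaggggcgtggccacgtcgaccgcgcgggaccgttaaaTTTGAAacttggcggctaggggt
MAD2L2, chr1:11681149-11681268, minus strand: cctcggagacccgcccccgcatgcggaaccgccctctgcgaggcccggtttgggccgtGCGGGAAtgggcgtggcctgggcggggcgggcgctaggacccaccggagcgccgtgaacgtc
Positions are counted back from the RefSeq start site, with -1 the base just before it. *CDC20* holds the CHR core at -65 to -60 between CCAAT boxes that begin at -100 and -55. A second CHR core of *CDC20* lies upstream of the stretch shown, at -178 to -173. In *BUB1* a CCAAT box begins at -54 and another, on the other strand, at -79. In *BUB1B* the match is a CHR core at -23 to -18. *MAD2L1* holds a CHR core after its start site, at 25 to 30, and a CCAAT box on the other strand far upstream, at -229 to -225. The windows of *TRIP13* and *MAD1L1* hold none of these letters. *MAD2L2* holds the E2F-type site at -62 to -56 of the start site shown, which lies inside the annotated gene, and a CCAAT box at -231 to -227, and none of the motifs at its other start site. The CHR core was thus present in 3 of the 7 genes and in 15.2% of 35116 promoters. The CCAAT box was present in 4 genes and 34.6% of promoters, and the E2F-type site in 1 gene and 6.55% of promoters. *MAD2L2* is among the genes counted for both of these, and it counts as 1 gene over its 2 start sites. Such matches describe the letters in these windows and are not evidence of binding.

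The checkpoint kinases *TTK* and *BUB1* and the related *BUB1B* rose, with log2 fold changes of 1.02 to 1.07. *TTK* (ENSG00000112742, chr6:80003887-80042527, plus strand of GRCh38), which encodes the kinase at the head of the pathway, had 5.67, 5.22 and 5.84 FPKM in the TPC-1 libraries and 11.2, 12.1 and 11.9 FPKM in the overexpressing ones. The lowest overexpressing library was well above the highest of TPC-1. The means were 5.57 ± 0.319 (SD, n = 3) and 11.8 ± 0.484 FPKM (SD, n = 3), a log2 fold change of 1.07 (standard error, SE, 0.0585, limma adjusted p = 1.84e-06). *BUB1* (ENSG00000169679, chr2:110637698-110678114, minus strand) encodes a kinetochore kinase that also marks centromeric chromatin. It was at 10.01, 10.1 and 10.5 FPKM in TPC-1 and at 21.0, 20.9 and 20.4 FPKM in the overexpressing cells. Replicates of this gene differed little, and the groups were well apart. Its mean rose from 10.2 ± 0.239 to 20.8 ± 0.316 FPKM (SD, n = 3 each), giving a log2 fold change of 1.02 (SE 0.0376, limma adjusted p = 2.74e-07). *BUB1B* (ENSG00000156970, chr15:40161023-40221136, plus strand), whose product BUBR1 binds CDC20, was at 9.53, 10.1 and 8.79 FPKM in TPC-1 and at 18.7, 19.6 and 20.8 FPKM in the overexpressing cells. The groups did not overlap, although the spread within each, with a coefficient of variation of 7.17% in TPC-1 and 5.21% in the overexpressing cells, was wider than that of *BUB1*. The log2 fold change was 1.05 (SE 0.0626, limma adjusted p = 2.77e-06) between means of 9.49 ± 0.681 and 19.7 ± 1.03 FPKM (SD, n = 3 each).

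**Figure D1:**
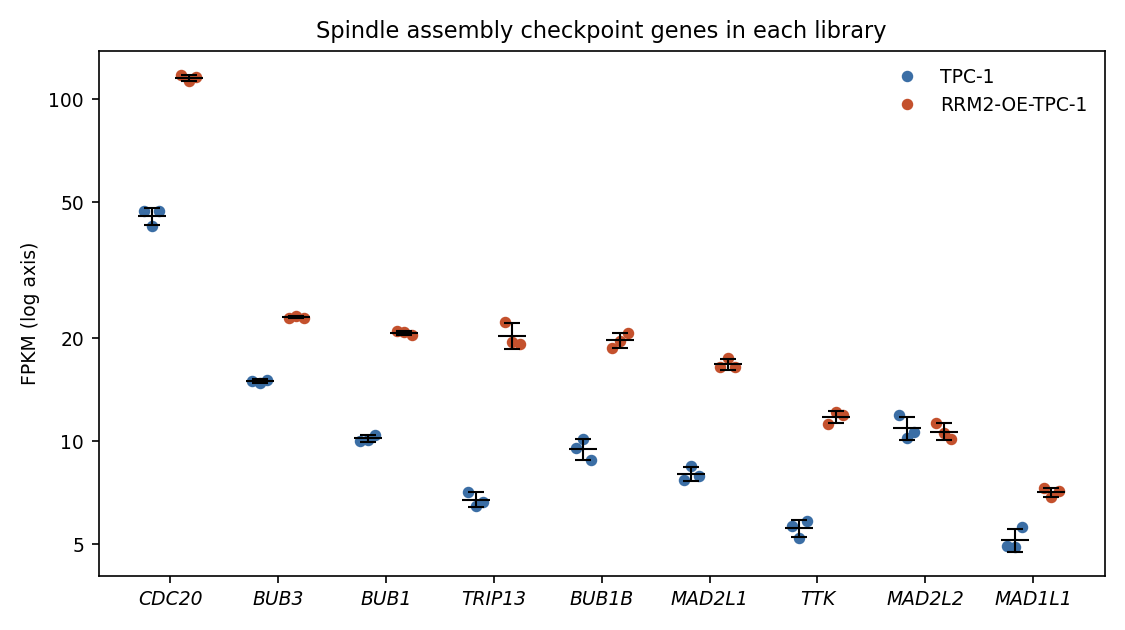
FPKM (log axis) of the 9 spindle assembly checkpoint genes in each of the 3 libraries of TPC-1 (blue) and the 3 overexpressing libraries (orange), with the mean and SD of each group in black. The groups are apart for 8 genes and overlap for *MAD2L2*, where the libraries lie between 10.1 and 11.9 FPKM.

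*CDC20* had the highest FPKM of the 9 genes and *TRIP13* had the largest fold change. *CDC20* (ENSG00000117399, chr1:43358955-43363203, plus strand), which encodes the APC/C activator that the checkpoint holds back, was at 47.0, 42.5 and 47.1 FPKM in the TPC-1 libraries and at 118, 113 and 116 FPKM in the overexpressing ones. Each overexpressing library held more than 2 times the level of any TPC-1 library. The group means were 45.5 ± 2.63 and 116 ± 2.35 FPKM (SD, n = 3 each), with a log2 fold change of 1.35 (SE 0.0459, limma adjusted p = 1.95e-07). *TRIP13* (ENSG00000071539, chr5:892643-919357, plus strand) was at 7.12, 6.46 and 6.66 FPKM in TPC-1 and at 22.4, 19.5 and 19.2 FPKM in the overexpressing cells. Replicate 1 was the highest library of both groups, and the groups were far apart. Its mean rose from 6.75 ± 0.336 to 20.4 ± 1.76 FPKM (SD, n = 3 each), giving a 3.02-fold difference and a log2 fold change of 1.58 (SE 0.0681, limma adjusted p = 5.79e-07), which placed it at rank 178 from the highest of the 13621 tested genes. Exons of *TRIP13* share 182 of 3560 bases (5.11%) with exons of *BRD9*, a gene of the opposite strand that encodes a chromatin remodeling subunit. *BRD9* was at 5.11 FPKM in TPC-1 and 6.91 in the overexpressing cells (means, log2 fold change 0.43, limma adjusted p = 6.24e-04). The strand setting of the read counting is not given in the sources used here, so that reads in the shared stretch may belong to either gene, and their part in the value of *TRIP13* was not tested.

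*MAD2L1* and *MAD1L1*, whose products form the MAD1-MAD2 complex, both rose, and only *MAD2L1* was called. *MAD2L1* (ENSG00000164109, chr4:120055608-120067074, minus strand) was at 7.69, 8.46 and 7.93 FPKM in TPC-1 and at 16.5, 17.5 and 16.5 FPKM in the overexpressing cells. The 2 groups did not overlap, and the means were 8.03 ± 0.394 and 16.8 ± 0.613 FPKM (SD, n = 3 each). The log2 fold change was 1.06 (SE 0.0508, limma adjusted p = 9.55e-07). *MAD1L1* (ENSG00000002822, chr7:1815793-2233243, minus strand) was at 4.93, 4.91 and 5.62 FPKM in TPC-1 and at 7.28, 6.86 and 7.15 FPKM in the overexpressing cells, the lowest mean level of the 9 genes in either line. Its groups did not overlap either. The mean rose from 5.15 ± 0.401 to 7.10 ± 0.215 FPKM (SD, n = 3 each), giving a log2 fold change of 0.46 (SE 0.0667, limma adjusted p = 4.17e-04).

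*BUB3* rose without reaching the fold threshold, and *MAD2L2* gave no change that the test could resolve. *BUB3* (ENSG00000154473, chr10:123154277-123170467, plus strand), which encodes the WD40 protein that brings BUB1 and BUBR1 to kinetochores, was at 15.0, 14.8 and 15.1 FPKM in TPC-1 and at 23.0, 23.3 and 23.0 FPKM in the overexpressing cells. It had the smallest spread between replicates of the 9 genes, with coefficients of variation of 1.27% and 0.828%. Counting error alone gave 2.24% in its library with the fewest reads, so this small spread is not read as a trait of *BUB3*. The log2 fold change was 0.62 (SE 0.0331, limma adjusted p = 1.59e-06), from 15.0 ± 0.190 to 23.1 ± 0.191 FPKM (SD, n = 3 each). *MAD2L2* (ENSG00000116670, chr1:11674480-11691650, minus strand) was at 11.9, 10.2 and 10.7 FPKM in TPC-1 and at 11.3, 10.6 and 10.1 FPKM in the overexpressing cells. The highest and the second lowest of these 6 libraries belong to TPC-1, and the groups overlap throughout. With means of 10.9 ± 0.871 and 10.7 ± 0.606 FPKM (SD, n = 3 each), the log2 fold change was -0.031 (SE 0.0679, limma adjusted p = 0.698). Its 95% interval, -0.19 to 0.13, bounds the change in either direction.

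The 6 called genes did not all stand clear of the threshold. The 95% intervals of *CDC20* (1.24 to 1.45) and *TRIP13* (1.42 to 1.73) lay above a log2 fold change of 1. Those of the other 4 spanned it, namely *BUB1* (0.93 to 1.11), *BUB1B* (0.90 to 1.19), *MAD2L1* (0.94 to 1.18) and *TTK* (0.93 to 1.20). These 4 genes dropped below the threshold, at 0.96 to 0.98, when 1 in place of 0.1 was added to the FPKM, while each stayed past the adjusted p. With reads scaled to library totals *BUB1* (0.96) and *BUB1B* (0.99) dropped below it, and *BUB1B* also without replicate 3 of TPC-1 (0.99).

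**Figure D2:**
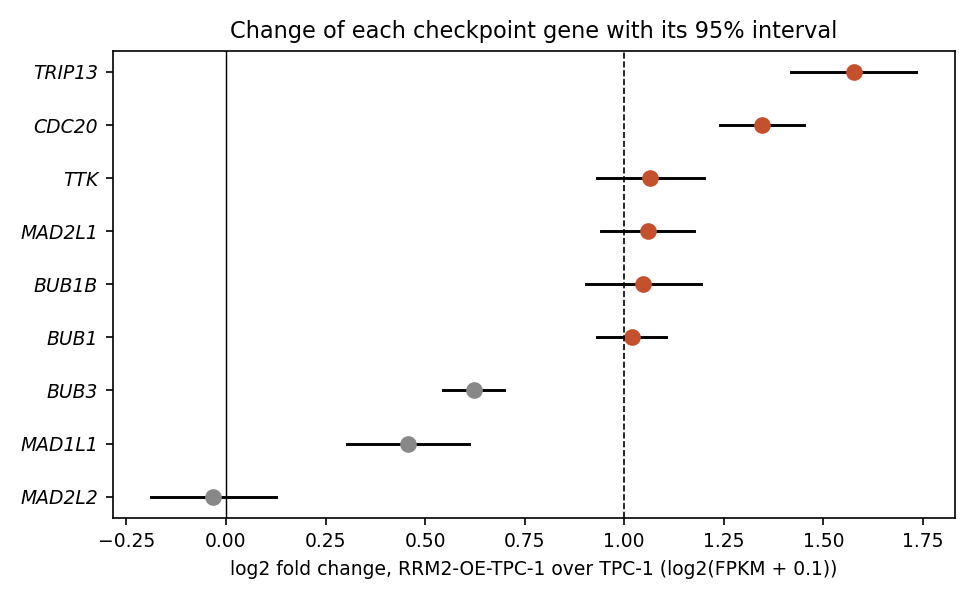
Log2 fold change of each gene, *RRM2*-OE-TPC-1 over TPC-1, on the log2(FPKM + 0.1) scale, with its 95% interval as a bar; orange marks genes that passed both thresholds and the dashed line a log2 fold change of 1. The intervals of *TRIP13* and *CDC20* lie above the dashed line, 4 genes span it, and *MAD2L2* spans 0.

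Because FPKM is a level per length, the genes could also be ordered by level. For each of the 9 genes the length used was that of all its annotated exons together, so that the order, the shares and the ratios between genes depend on how many exon bases are annotated for each. In TPC-1 the order of mean FPKM was *CDC20*, *BUB3*, *MAD2L2*, *BUB1*, *BUB1B*, *MAD2L1*, *TRIP13*, *TTK* and *MAD1L1*. Libraries of *MAD2L2* and *BUB1* overlapped, as did those of *BUB1* and *BUB1B* and those of *TTK* and *MAD1L1*. Within each TPC-1 library *MAD2L2* was still above *BUB1* and *TTK* above *MAD1L1*, whereas *BUB1* was not above *BUB1B* in every one. In the overexpressing cells the order was *CDC20*, *BUB3*, *BUB1*, *TRIP13*, *BUB1B*, *MAD2L1*, *TTK*, *MAD2L2* and *MAD1L1*. There the libraries of *BUB1* and *TRIP13*, of *TRIP13* and *BUB1B*, and of *TTK* and *MAD2L2* overlapped. *TRIP13* moved from the seventh to the fourth place and *MAD2L2* from the third to the eighth. The highest level was 8.83 times the lowest in TPC-1 and 16.3 times in the overexpressing cells. *CDC20* made up 39.0% of the summed FPKM of the 9 genes in TPC-1 and 47.0% in the overexpressing cells.

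The ratio of 2 members within each library shows whether partners moved by different amounts. A set of 7 pairs that bind one another, act in sequence or are related by descent were compared with an exact two-sided permutation test, which with 3 libraries against 3 cannot give a p under 0.1. The ratio of *BUB1B* to *BUB1* was 0.952, 1.00 and 0.840 in TPC-1 and 0.894, 0.939 and 1.02 in the overexpressing cells. The groups overlapped, with a log2 difference of 0.029 (exact permutation p = 0.9, 0.9 adjusted over 7 pairs). The ratio of *TTK* to *BUB1* was 0.547 ± 0.0264 and 0.567 ± 0.0277 (SD, n = 3 each), which also overlapped, with a log2 difference of 0.047 (exact permutation p = 0.5, 0.583 adjusted over 7 pairs).

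In the remaining 5 pairs the 2 groups did not overlap, and each reached the smallest p possible (exact permutation p = 0.1, 0.14 adjusted over 7 pairs), so that none passed a threshold of 0.05. How often ratios of other genes separate in this way was not counted, so the number of pairs is not read as a trait of the checkpoint. Which gene of a pair has the higher FPKM depends on the annotated exon lengths used. *MAD2L1* was below its relative *MAD2L2*, at 0.647, 0.828 and 0.743 times its FPKM, in TPC-1. In the overexpressing cells *MAD2L1* was above *MAD2L2*, at 1.46, 1.66 and 1.63 times its FPKM. The ratio of *MAD2L1* to *MAD1L1* was 1.57 ± 0.156 in TPC-1 and 2.37 ± 0.158 in the overexpressing cells (SD, n = 3 each), a log2 difference of 0.60. *TRIP13* was below *MAD2L1*, whose product it remodels, in every TPC-1 library (0.925, 0.764 and 0.841) and above it in every overexpressing library (1.36, 1.11 and 1.17). *BUB1B* to *BUB3* gave 0.634 ± 0.0533 and 0.854 ± 0.0456 (SD, n = 3 each), a log2 difference of 0.43. *CDC20* exceeded *MAD2L1*, which sequesters it, by 5.69 ± 0.585 times in TPC-1 and 6.89 ± 0.378 times in the overexpressing cells (SD, n = 3 each), the smallest log2 difference of these 5 pairs at 0.29.

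**Figure D3:**
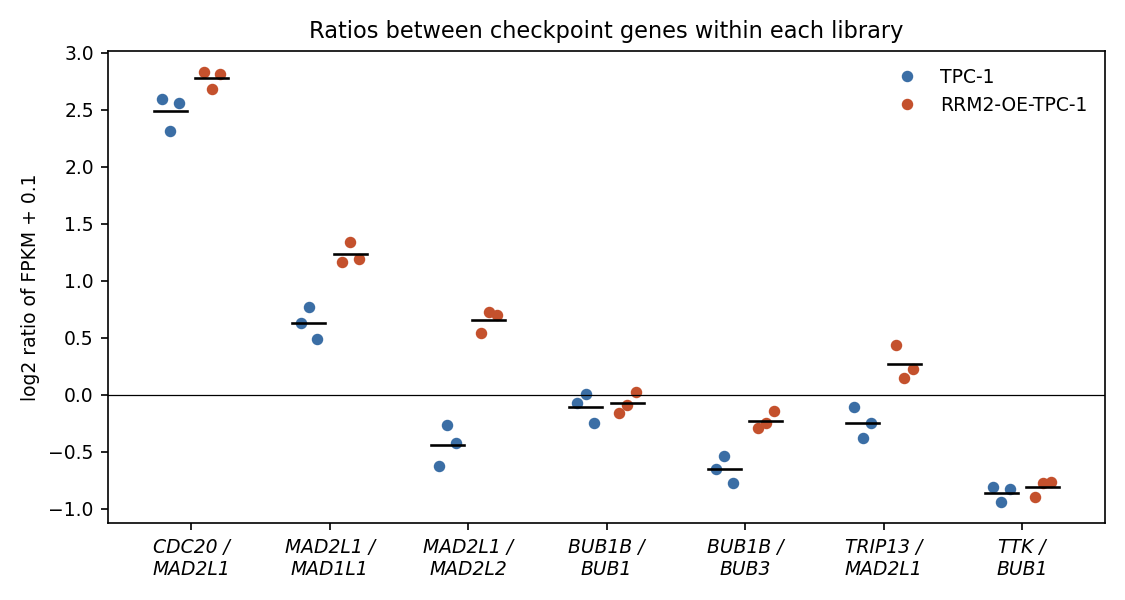
Log2 ratio of FPKM + 0.1 between 2 checkpoint genes within each library, with libraries of TPC-1 in blue, overexpressing libraries in orange, and the group mean as a black line. *BUB1B* to *BUB1* and *TTK* to *BUB1* overlap between the groups, and *MAD2L1* to *MAD2L2* moves most, by 1.09.

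The genes that the checkpoint works with were taken as 7 lists of 66 genes, of which 65 were tested. *USP44*, at 0.233 FPKM or less in every library, was below the FPKM minimum for testing. Of the 65, 47 rose, 5 fell and 13 did not pass, with 7 called higher and a median log2 fold change of 0.41. Of all tested genes 34.9% rose, 32.7% fell and 4.48% were called higher, and the counts of each list are read against these shares. At the kinetochore, where the checkpoint signal arises, 13 of 16 genes rose, 1 fell and 4 were called, with a median of 0.71. *SPC24*, a subunit of the microtubule-binding NDC80 complex, rose from 4.55 ± 0.0985 to 11.2 ± 0.607 FPKM (SD, n = 3 each), with a log2 fold change of 1.27 (limma adjusted p = 5.86e-07). *ZWINT*, which links KNL1 to the RZZ complex, rose from 27.4 ± 1.16 to 66.1 ± 2.39 FPKM (SD, n = 3 each), also by 1.27 (limma adjusted p = 1.98e-07). *PMF1*, a subunit of the MIS12 complex, fell by 0.28 on the log2 scale (limma adjusted p = 0.00169). Of 9 genes of the chromosomal passenger complex and centromeric regulators, 8 rose and 1 was called, with a median of 0.84. The called gene was *INCENP*, the scaffold of Aurora B, at 9.27 ± 0.284 and 20.6 ± 0.264 FPKM (SD, n = 3 each, log2 fold change 1.14, limma adjusted p = 2.00e-07). *HASPIN*, a kinase of histone H3, rose by 0.94 (limma adjusted p = 2.12e-04).

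Of the 14 core subunits of the APC/C, which the checkpoint inhibits, 8 rose, 1 fell and 5 did not pass, none was called (4.48% of all tested genes were), and the median log2 fold change was 0.22. *ANAPC15*, a subunit linked to the turnover of the checkpoint complex, rose by 0.50 (limma adjusted p = 0.0231) at a level of only 1.09 ± 0.218 and 1.56 ± 0.144 FPKM (SD, n = 3 each). The scaffold *ANAPC1* rose by 0.44 (limma adjusted p = 8.77e-05), and *ANAPC16* fell by 0.35 on the log2 scale (limma adjusted p = 9.39e-05). Of 5 cofactors 4 rose and none was called, led by the ubiquitin-conjugating enzyme *UBE2C* (42.8 ± 3.43 to 78.9 ± 3.00 FPKM, SD, n = 3 each, log2 fold change 0.88, limma adjusted p = 5.26e-06). The APC/C inhibitor *FBXO5* rose by 0.61 (limma adjusted p = 7.45e-05). All 6 substrates or targets in the list rose and 2 were called, with a median of 0.81. *CCNA2*, cyclin A2, rose from 15.3 ± 1.20 to 35.5 ± 1.06 FPKM (SD, n = 3 each, log2 fold change 1.21, limma adjusted p = 9.32e-07). *PTTG1*, securin, rose from 12.8 ± 0.630 to 27.6 ± 1.82 FPKM (SD, n = 3 each, log2 fold change 1.10, limma adjusted p = 1.54e-06). The study's own list of differentially expressed genes holds *CCNA2*, *PTTG1* and the kinetochore scaffold *KNL1*.

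Of 5 tested genes that anchor or silence the checkpoint, 4 rose, 1 fell and none was called, with a median of 0.20. *MAD2L1BP*, whose product p31comet guides TRIP13 to MAD2, rose by 0.48 (limma adjusted p = 0.00473), from 8.79 ± 0.607 to 12.4 ± 2.05 FPKM (SD, n = 3 each). Of the catalytic subunits of protein phosphatase 1, *PPP1CC* rose by 0.47 (limma adjusted p = 9.42e-06) and *PPP1CB* fell by 0.28 on the log2 scale (limma adjusted p = 3.43e-04). Of 10 partners of MAD2L2 in DNA repair 4 rose, 2 fell and 4 did not pass, none was called, and the median was 0.25, so that the share that rose was near that of all tested genes (34.9%). The polymerase subunits *POLD3* and *POLD2* rose by 0.57 and 0.36 (limma adjusted p = 5.82e-05 and 8.38e-05), whereas the translesion polymerase *REV1* and the repair scaffold *TP53BP1* fell by 0.34 and 0.19 on the log2 scale (limma adjusted p = 0.00107 and 0.0138).

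**Figure D4:**
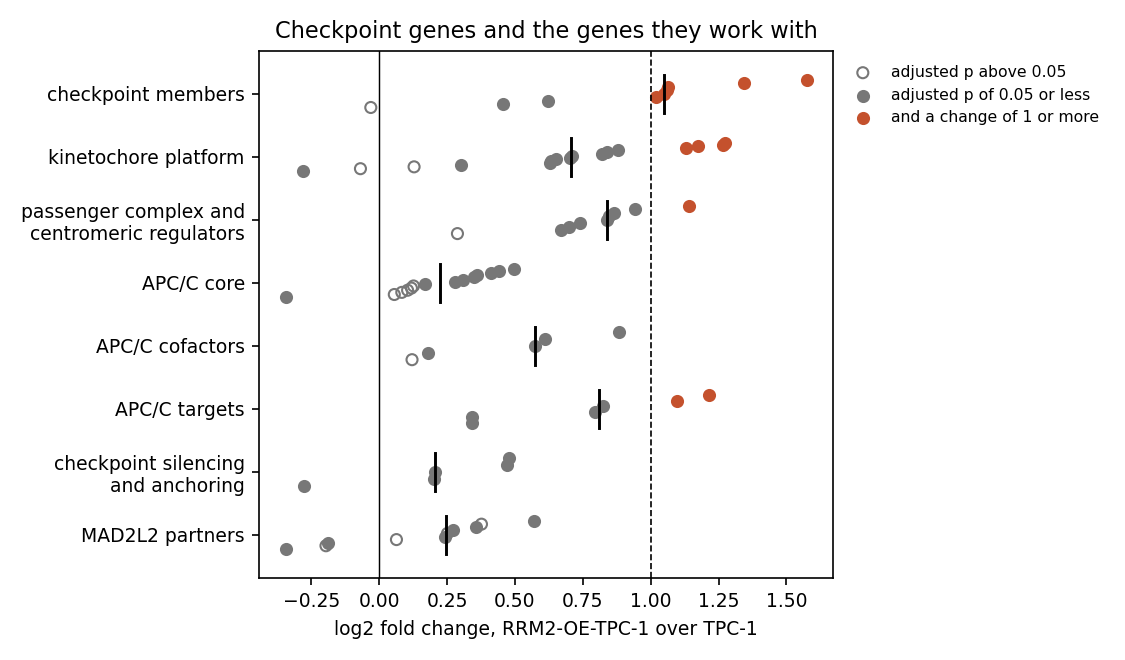
Log2 fold change (*RRM2*-OE-TPC-1 over TPC-1) of the 9 checkpoint genes and of 65 genes in 7 lists, one dot per gene, with the median of each list as a black line and a log2 fold change of 1 dashed. The medians run from 0.20 for silencing and anchoring to 0.84 for the passenger complex list, with the checkpoint genes at 1.05.

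Apart from *BRD9*, the genes that overlap or copy a member held few reads. *BUB1B* shares 457 exon bases (10.2%) with the readthrough gene *BUB1B-PAK6* of the same strand, which held 0 reads, and *MAD2L1* shares 44 bases (0.765%) with *AC108866.1* of the opposite strand, at a mean of 0.0414 FPKM. How reads in such shared stretches were counted is not given in the sources used here. These low values therefore do not show whether reads of *BUB1B* or *MAD2L1* were lost there. The processed pseudogenes *CDC20P1*, *BUB1P1* and *BUB3P1* held 4, 2 and 0 reads over the 6 libraries. Members held between 378 reads (*TRIP13*) and 3949 reads (*CDC20*) in a library, so that counting error alone gave a coefficient of variation of 2.24% to 5.14% in the library with the fewest reads of each gene.

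By Pearson r over the 6 libraries, the protein-coding genes most like the mean of the 9 members were *HMOX1*, *TUBB4B*, *GINS2*, *HSP90AB1* and *HSP90AA1*. Their log2 fold changes were 1.42, 2.15, 1.71, 1.15 and 2.31 in that order. This measure describes little beyond the difference between the 2 groups, since 2782 of 11442 other protein-coding genes had an r over 0.95, and the r of *MAD2L2* with that mean was -0.164.

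The libraries held 14317091 to 17084067 reads on genes, and mitochondrial genes took 4.29% to 5.89% of them. Of 6 markers of thyroid follicular cells, *PAX8* and *FOXE1* were at a mean of at least 1 FPKM, and the summed level of the 6 was 73.7 FPKM in TPC-1 and 61.8 in the overexpressing cells. *NKX2-1* was at 0 in all libraries, and *TG*, *TSHR* and *SLC5A5* were at 0.113 FPKM or less. Of 4 epithelial markers *KRT8* and *KRT18* were at 1 FPKM or more, and *KRT19* and *EPCAM* were at 0.125 FPKM or less. The summed level of the 4 was 43.8 FPKM in TPC-1 and 88.8 in the overexpressing cells, of which *KRT18* alone gave 41.2 and 85.2. None of 3 leukocyte and 2 endothelial markers reached a mean of 1 FPKM over all libraries, and of 3 fibroblast markers *PDGFRB* did. The endothelial *PECAM1* was at a mean of 0.924 FPKM in TPC-1 and 0.0588 in the overexpressing cells.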

How the data were processed

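RNA of 3 TPC-1 and 3 *RRM2*-OE-TPC-1 libraries was sequenced from a directional kit. The study's methods describe poly(A) selection, and the labels removal of ribosomal RNA with RNase R digestion. The authors cleaned reads with fastp, aligned them with HISAT2 2.0.5 (the labels name GRCh38.p14), counted them with featureCounts 1.5.0 and deposited FPKM, described as read counts divided by gene length and sequencing depth. For the members the length equals that of all annotated exons together. The depth followed median-of-ratios factors (0.999 to 1.001 times, relative to their mean) rather than reads on genes, of which it was 0.997 to 1.05 times. All 58735 identifiers and positions matched GENCODE 29. Multiplied by gene length, 100.0% of values were whole multiples of a step per library, which gave the reads behind each value. Replicates of a group differed by more than counting error in a chi-square comparison of each pair.

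Values were tested as log2(FPKM + 0.1) with limma 3.58.1 (lmFit, eBayes with trend) in R 4.3.3. Genes with at least 0.5 FPKM and 10 reads in 3 libraries were tested, which left 13621 genes. No count model was used for the main result because the deposited values are FPKM. Fold changes on this scale understate those of low genes. On simulated data of this comparison with 13585 genes, 99.0% of 197 changed genes were called and 1 unchanged gene. All changes planted there were well beyond the log2 fold change threshold of 1, so this share does not cover genes near it. The simulation also gave every gene the same spread beyond counting error and planted far fewer changes than passed in the real data. Its count of wrong calls is therefore not a rate for these libraries. Ratios were compared with exact permutation tests (scipy 1.17.1). Alternatives were other pseudocounts, no filter, other scalings, voom on recovered reads, a replicate block, adjusted p alone and each library left out.

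The members and lists were chosen with earlier results of these data known. The genes named are the members, *RRM2*, in each list up to 2 increases and 2 decreases that were the largest past the adjusted p, genes that overlap or copy a member, and the 5 most like the members' mean. *USP44*, *KNL1* and the markers are named outside this rule, and 1 marker is not reported here. Promoters are from RefSeq on GRCh38.p14. Intervals cover 95%.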

Additional observations from a re-analysis of the deposited data

How the results depend on the processing

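Over 208 alternatives of 19 results, 193 kept the direction and the side of the threshold (for counts, stayed within 1.5 times). With a pseudocount of 1, 2 members in place of 6 and 716 of all genes in place of 1560 were called, since a larger pseudocount shrinks fold changes; *BUB1* (0.96), *BUB1B* (0.98), *MAD2L1* (0.98) and *TTK* (0.96) then missed a log2 fold change of 1. On adjusted p alone, 52 pathway genes in place of 7 and 9207 genes in all passed. With reads scaled to library totals, which moved the median of all genes from 0.011 to -0.046, *BUB1* (0.96) and *BUB1B* (0.99) missed it. With each library left out in turn, *BUB1B* ranged from 0.99 to 1.10 and *MAD2L2* from -0.078 to 0.031, above 0 when TPC-1 replicate 1 (0.031) or *RRM2*-OE-TPC-1 replicate 3 (0.0061) was left out. The log2 ratio of *BUB1B* to *BUB1* ranged from -0.043 to 0.084, below 0 when replicate 3 of TPC-1 (-0.043) or of *RRM2*-OE-TPC-1 (-0.022) was left out. The cause was not tested. With the replicate number as a replicate block, 6 members and 1566 genes were called, and no call on a member changed. The correlations of same-numbered libraries' deviations were -0.011, -0.0060 and -0.055, beside -0.048 to 0.061 for libraries with different numbers. These values show no sign of pairing but cannot settle whether the numbers pair the samples. Counting error of 2.24% to 5.14% per gene limits smaller differences.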
